A study of Schizosaccharomyces pombe with 3 samples.

Results

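The 87 genes described here are those that the deposited comparison of fission yeast (*Schizosaccharomyces pombe*) grown with 5% glucose (T2) and 3% glucose (T1) lists as different between the 2 libraries. They were all taken, with no further choice, and make up 87 of the 444 genes in the 3 comparisons of the series, which also has a culture condition with 8% glucose (T3). Of the 87, which are 1.70% of 5113 protein-coding genes in the assembly ASM294v3, 61 (70.1%) were at least 2-fold higher at 5% glucose and 26 (29.9%) at least 2-fold higher at 3%. Because each gene had to differ to be listed, these shares describe the list and are not the share of all genes that differed.

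The T1 and T2 samples were wild type cells of strain 972h-, started from a single colony in synthetic dextrose (SD) medium that held its glucose concentration from the beginning and grown to mid-log phase at 30 °C with shaking. RNA of 3 replicates was pooled for each concentration, polyadenylated RNA was selected with oligo-dT, and 1 paired-end library was sequenced on an Illumina HiSeq. With a single pooled library on each side, no difference could be checked against replicate libraries and no p-value is given. Levels are given as FPKM, the fragments of a gene scaled by its length in kilobases and by the size of the library, and as estimated counts of fragments. Each ratio of FPKM values is followed by its 95% interval (Clopper-Pearson, exact), computed from rounded counts. It holds for the error of counting and leaves out how cultures vary. The counts and FPKM values correspond to 5742036 fragments in T1 and 5885763 in T2. These numbers were fitted, and every share of fragments given below is a share of them, not of the sequenced library. The study reports larger numbers of gene-mapped reads for both libraries, and this gap was not examined. A library mixes all cells of its replicates, so more transcript in each cell and more cells with the transcript cannot be told apart.

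Fission yeast ferments glucose and takes it up through the Ght family of hexose transporters. While glucose is plentiful, genes for using other sugars are held down by glucose repression, in which the zinc finger repressor Scr1, a relative of budding yeast Mig1, acts on genes such as inv1. Ribosomal protein genes are among the most strongly transcribed genes of growing cells, and in fission yeast most of them carry a short promoter element called HomolD, which takes the place of a TATA box. Stress proteins, retrotransposons and gene families near the chromosome ends are further groups whose transcripts are known to move with nutrients and growth.

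The 2 directions held different kinds of genes. The 61 genes higher at 5% were mostly long and moderately expressed, with a median length of 2048 bases (306 to 5802) and a median level in T2 of 38.2 FPKM (7.08 to 631), and 49 of them stayed under 100 FPKM. The 26 genes higher at 3% had a median length of 582 bases (249 to 5578) and a median level in T1 of 218 FPKM (3.22 to 4579), and 11 of them reached 1000 FPKM or more, a level that none of the 61 reached. Of the 20 listed genes under 600 bases, 14 were higher at 3%, whereas of the 19 genes of 3000 bases or more, 17 were higher at 5%. The contrast rests largely on 1 family, as all 10 listed ribosomal protein genes are among the 14. The other 6 genes under 600 bases were higher at 5%. With hsp16, the ribosomal protein genes are also the 11 that reached 1000 FPKM or more. A difference of at least 4-fold was found for 15 genes higher at 5% (17.2%) and for 3 genes higher at 3% (3.45%). Most of the 15 and all 3 have copies or share stretches with other genes, as described further on, so this split is not one of single-copy genes.

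**Figure D1:**
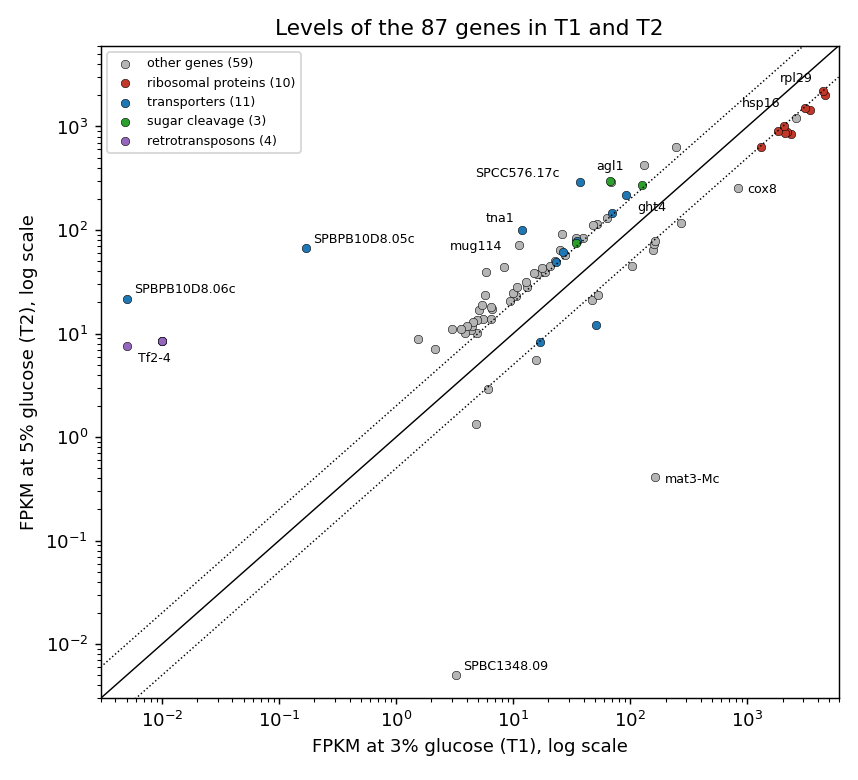
FPKM of the 87 genes at 3% glucose (x axis) and 5% glucose (y axis), both on log scales, 1 point per gene and 1 library per concentration. The solid line marks equal levels and the dotted lines a 2-fold difference, values under 0.005 FPKM are drawn at 0.005, and the 10 ribosomal protein genes lie at the upper right, below the lower dotted line.

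Ribosomal protein genes formed the main group higher at 3% glucose. All 10 that were listed, of 138 such genes in the assembly, were higher in T1, with a median log2 ratio of -1.11 (-1.47 to -1.01) beside a median of 1.19 over all 87 genes. They were short genes of 249 to 592 bases with levels from 1297 to 4579 FPKM in T1 and from 634 to 2197 FPKM in T2, so the level ranges of the 2 libraries overlapped across genes although each gene was lower in T2. Together they had 53562 counts in T1 and 26073 in T2, which is 0.933% (95% interval 0.925 to 0.941) and 0.443% (0.438 to 0.448) of the fragments. Their summed count per fragment was 2.11-fold higher at 3% (2.07 to 2.14).

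To show what the promoters of this group share, 80 bases directly upstream of the annotated transcript start are given for 6 of the 10 genes, 5′ to 3′ on the coding strand, from the RefSeq assembly ASM294v3. Capitals mark the HomolD core CAGTCAC, or its reverse complement GTGACTG, and in rpl3001 also the element HomolE on the other strand.
rpl4102 (chrI:2853932-2854011, minus strand): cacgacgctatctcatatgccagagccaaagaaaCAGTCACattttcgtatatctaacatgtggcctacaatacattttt
rps2801 (chrI:4305856-4305935, plus strand): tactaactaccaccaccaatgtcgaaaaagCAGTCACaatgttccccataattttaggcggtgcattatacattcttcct
rps3002 (chrII:2349452-2349531, minus strand): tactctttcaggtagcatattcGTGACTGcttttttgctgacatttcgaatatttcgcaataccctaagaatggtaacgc
rps29 (chrII:516348-516427, plus strand): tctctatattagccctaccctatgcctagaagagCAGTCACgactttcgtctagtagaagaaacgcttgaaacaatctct
rpl3001 (chrI:1974084-1974163, minus strand): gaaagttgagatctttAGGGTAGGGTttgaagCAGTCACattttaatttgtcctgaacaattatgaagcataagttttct
rpl29 (chrII:3172233-3172312, plus strand): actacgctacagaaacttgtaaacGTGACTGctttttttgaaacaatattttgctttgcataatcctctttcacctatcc
The core stood 46 to 60 bases before the annotated start in all 10 listed ribosomal protein genes. Within 250 bases upstream, on either strand, it was found in 124 of all 138 ribosomal protein genes (89.9%) and in 231 of 5112 protein-coding genes (4.52%). The element is thus found in most of the family and not only in the listed genes. None of the 15 other genes higher at 3% with a placed promoter had it, and of the 60 higher at 5% only bro1 did. The longer form CAGTCACA, which contains the core, was in 5 of the 10 and in 63.0% of the family. HomolE, searched as 2 units of ACCCT in a row, was in rpl3001 alone among the 10 and in 29.7% of the family. A match is a description of the letters and not evidence of binding.

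Among the small-subunit genes, rps2801 and rps2802 both encode S28. The rps2801 transcript had 2198 FPKM in T1 and 875 FPKM in T2, a 2.51-fold difference (2.35 to 2.68). For rps2802 the levels were 1297 and 634 FPKM, or 2.05-fold (1.93 to 2.17). S30 is likewise made from a pair of listed genes, rps3001 with 2108 and 869 FPKM (2.43-fold, 2.32 to 2.54) and rps3002 with 3414 and 1443 FPKM (2.37-fold, 2.25 to 2.49). Both copies of each pair thus lay on the same side, and the interval of rps2801 did not meet that of rps2802, while those of rps3001 and rps3002 overlapped. The genes of S29 (rps29) and S26 (rps2601) were 2.26-fold (2.17 to 2.36) and 2.04-fold (1.95 to 2.14) higher in T1, from 4579 to 2024 FPKM and from 1843 to 902 FPKM.

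In the large subunit, rpl4102, which encodes the very small protein L41, had the widest difference of the group, with 2337 FPKM in T1 and 845 FPKM in T2 (2.77-fold, 2.57 to 2.98). The genes of L30 (rpl3001), L29 (rpl29) and the acidic stalk protein P1 (rpp103) were nearer to the 2-fold limit. Their FPKM values were 3081 and 1498 for rpl3001 (2.06-fold, 1.98 to 2.13), 4456 and 2197 for rpl29 (2.03-fold, 1.95 to 2.11) and 2036 and 1011 for rpp103 (2.01-fold, 1.92 to 2.11). The lower ends of these 3 intervals, and of those of rps2601 and rps2802, lie under 2, so counting error alone leaves their place inside the list uncertain. At 8% glucose 7 of the 10 genes have a value, held only because the comparison of T3 with T1 lists them as different, so levels away from T1 were a condition of having one. Among them, rpl29 had 2109 FPKM, rps2801 931 FPKM and rps3002 1669 FPKM.

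Part of the ratio of short genes comes from how FPKM was made. Counts divided by FPKM follow the gene length less a fixed number of bases, as for an effective length, and that number was 61.6 bases in T1, 48.0 in T2 and 51.3 in T3. This number for T1 stands apart from the other 2, and it raises the T1 level of a short gene relative to a count. For 42 genes with over 200 counts in both libraries, the log2 ratio of FPKM less that of counts per fragment was given by these bases to within 0.00248. Its median was -0.0653 for listed genes under 600 bases and -0.00534 for those of 3000 bases or more. By counts per fragment, 6 of the 10 ribosomal protein genes kept a difference of 2-fold or more, and the smallest was 1.93-fold. By the same measure 22 of the 87 genes (25.3%) were at least 2-fold higher at 3%, and 61 (70.1%) at 5%.

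**Figure D2:**
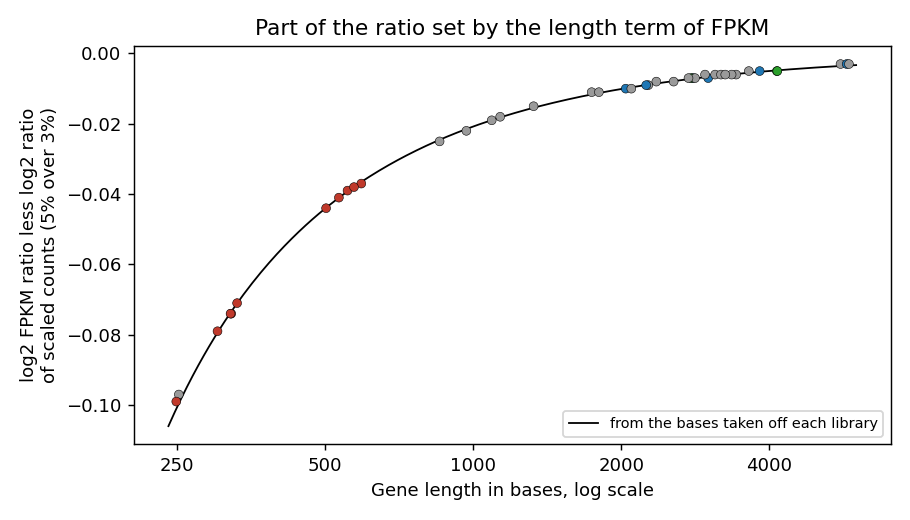
Log2 ratio of FPKM less the log2 ratio of counts per fragment, 5% over 3% glucose, against gene length in bases on a log scale, for the 42 genes with over 200 counts in both libraries (red, ribosomal proteins; blue, transporters; green, sugar cleavage; grey, others). The points follow the curve computed from the 61.6 bases taken off in T1 and the 48.0 in T2, so the shortest genes lose about 0.1 log2 units.

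Of the other short and abundant transcripts higher at 3%, cox8, a cytochrome c oxidase subunit gene, had 837 FPKM in T1 and 257 FPKM in T2. This was 3.26-fold higher at 3% (2.86 to 3.72) by FPKM and 918 against 309 by counts. It was the only one of 37 respiratory chain and ATP synthase genes in the list, and at 8% it had 226 FPKM. The annotated exons of cox8 lie on the opposite strand of mvd1, a gene of the mevalonate pathway, over 251 of 252 bases. No step of the processing is described as assigning reads by strand, so the 2 transcripts may not be told apart. The counts of cox8 are whole, and sharing of fragments with mvd1 was not tested. The small heat shock gene hsp16 had 2618 FPKM in T1, 1213 in T2 and 290 in T3, and was 2.16-fold higher in T1 than in T2 (2.09 to 2.23). It was the 1 listed gene of 28 for heat shock proteins and chaperones on that list. The transcript of snp27, a subunit of the spliceosomal tri-snRNP, fell from 271 to 117 FPKM (2.32-fold, 2.11 to 2.55).

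**Figure D3:**
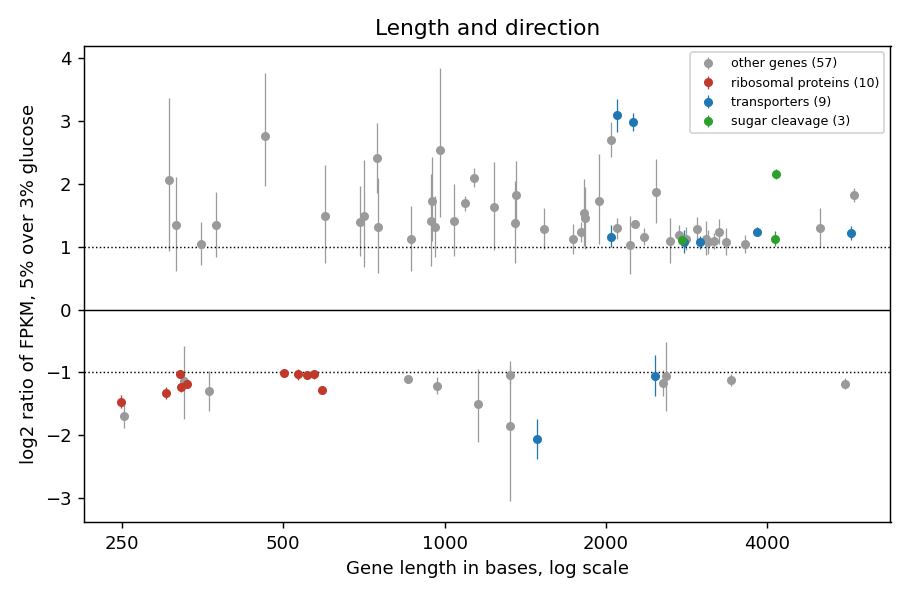
Log2 ratio of FPKM, 5% over 3% glucose, against gene length in bases on a log scale, for the 79 genes with at least 3 counts in each library. Bars are 95% exact intervals for counting error, and dotted lines mark a 2-fold difference. The genes under 600 bases lie mainly below 0, where 10 of them are ribosomal protein genes. Those of 3000 bases or more lie mainly above it.

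Longer genes were a minority among those higher at 3%. The gene of the TRAPP complex subunit trs130, at 5578 bases the longest of the 26, had 3248 counts in T1 and 1475 in T2 (2.26-fold, 2.13 to 2.41). Over 29.8% of its exons trs130 overlaps msh6 on the opposite strand. The gene rps2802 also lies wholly inside the exons of trs130, on the opposite strand. The counts of trs130 and rps2802 are whole, and whether their 2 differences draw on the same fragments was not tested. The phospholipase gene plb2 had 159 and 73.1 FPKM (a T2 to T1 ratio of 0.459, 0.431 to 0.489) and stood at 237 FPKM at 8%, the only gene of this direction with a level in T3 above that in T1. The reductase gene SPAC2F3.05c, annotated for xylose and arabinose, had 161 and 78.2 FPKM (2.06-fold, 1.87 to 2.28). The amino acid permease gene aat1 had 17.0 and 8.23 FPKM (2.07-fold, 1.65 to 2.61). The counts of aat1 are not whole, and 16.7% of the 25-base stretches of its coding sequence are shared with SPBC359.01. The gene edc1 had 46.9 and 20.9 FPKM (2.25-fold, 1.96 to 2.58).

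The remaining genes of this direction have no assigned function or few counts. SPAC1705.02, a short SERF-like gene, had 270 counts in T1 and 118 in T2, and SPBC27.05 had 80 and 39. SPAC343.21 had 89 and 44 counts, and SPCC1672.14 had 35 and 10, a 3.63-fold difference with an interval from 1.76 to 8.22. SPAC959.11 had 99.01 and 36.27 counts and lies within the exons of omh6. SPBC1348.09, a short chain dehydrogenase gene, had 12 counts in T1 and 0 in T2, at least 4.19-fold higher at 3% against a floor of 3 counts in T2. Its coding sequence is identical to that of ayr2, for which no value is given here.

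Genes of transport, counting the oxidase gene fio1, were the most frequent annotated group among those higher at 5%, with 9 genes against 2 higher at 3%, beside 70.1% of all 87 higher at 5%. Of these, 2 of the 9 and 1 of the 2 are members of a single array of copies described further on. The largest difference backed by whole counts was that of tna1, annotated as a nicotinic acid transporter gene, which had 139 counts and 11.9 FPKM in T1 and 1220 counts and 101 FPKM in T2 (8.51-fold, with a log2 ratio of 3.09 and an interval from 2.83 to 3.35). SPCC576.17c, annotated as a vitamin B6 transporter gene, followed with 36.8 and 291 FPKM (7.89-fold, 7.16 to 8.71). Both stood higher again at 8%, with 159 and 428.4 FPKM, although neither is listed as different between T2 and T3. Ion transport was represented by the vacuolar calcium ATPase gene pmc1, with 26.6 and 61.6 FPKM (2.32-fold, 2.14 to 2.51), and by fio1, the multicopper oxidase of iron uptake, with 23.2 and 49.2 FPKM (2.11-fold, 1.87 to 2.40). No other gene of the 19 for iron, copper and zinc uptake was listed. Over 27.4% of its exons pmc1 overlaps cig2 on the opposite strand.

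Of the 8 hexose transporter genes, ght1, ght3 and ght4 were listed, beside 1.7% of all protein-coding genes. All 3 were higher at 5%, as were 70.1% of the 87 genes. The levels in T1 and T2 were 70.2 and 147 FPKM for ght1, 34.9 and 78.3 FPKM for ght3, and 92.0 and 218 FPKM for ght4. The differences were 2.10-fold (1.96 to 2.25), 2.24-fold (1.99 to 2.53) and 2.37-fold (2.24 to 2.49). All 3 have counts that are not whole, so fragments were divided among related genes. The coding sequences of ght3 and ght4 share 25-base stretches with each other (16.6% and 16.7% of them), while ght1 shares them with ght5, ght6 and ght8, which the sum of the 3 leaves out. That sum was 3570 counts in T1 and 8313 in T2, 2.27-fold higher, and 2129 counts in T3. These are 0.0622% (0.0602 to 0.0642) and 0.141% (0.138 to 0.144) of the fragments of T1 and T2.

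The enzymes that cleave other sugars outside or inside the cell lay on the same side. The alpha-glucosidase gene agl1 had 67.4 FPKM in T1 and 301 FPKM in T2 (4.46-fold, 4.22 to 4.71), the largest ratio among the carbon source genes. The invertase gene inv1 had 127 and 272 FPKM (2.15-fold, 2.04 to 2.27), and the maltase gene mal1 had 34.3 and 74.9 FPKM (a log2 ratio of 1.13, 1.01 to 1.25). With tgd1, annotated as a nucleotide-sugar dehydratase gene, 4 of 18 genes for the use of other carbon sources were listed, beside 1.7% of all protein-coding genes. All 4 were higher at 5%, as were 70.1% of the 87 genes. Their median log2 ratio was 1.12, beside 1.36 over the 61 genes higher at 5%. The exons of tgd1 are covered to 98.8% by gal10 on the opposite strand, as described further on. At 8% glucose agl1 had 15.8 FPKM and inv1 37.0 FPKM, both under their T1 levels. None of the 19 genes of glycolysis and ethanol formation and none of the 8 of the pentose phosphate pathway was listed, which says only that they were not called.

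Of 25 regulators known from glucose responses, 2 were listed, both higher at 5%. Of all protein-coding genes 1.7% were listed, and 70.1% of the 87 were higher at 5%, so the shared direction of 2 genes says little. The zinc finger gene rsv1, needed for survival in stationary phase, had 12.9 FPKM in T1 and 31.4 FPKM in T2 (2.43-fold, 1.94 to 3.06). The gene gid2, a subunit of a ubiquitin ligase that in budding yeast removes gluconeogenic enzymes, had 4.92 and 13.4 FPKM from 50 and 141 counts (2.73-fold, 1.97 to 3.85). They parted at 8%, where rsv1 had 4.42 FPKM and gid2 23.9 FPKM.

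For the glucose-repression theme the upstream 250 bases were also searched for the GC box, the core bound by Mig1 in budding yeast, as CCCCG or CCCCA followed by C or by G, on either strand. It was found in 11 of the 60 placed genes higher at 5% (18.3%), in none of the 25 higher at 3%, and in 297 of 5112 protein-coding genes (5.81%). The 11 were vta1, SPAC4F10.17, mug24, rsv1, ght4, hri1, pub3, fio1, ght1, php3 and tgd1. The box was thus absent from these windows of inv1, agl1, mal1 and ght3. The 11 genes were higher at 5% than at 3%, whereas glucose repression holds genes down while glucose is plentiful. Only rsv1, ght4, ght1 and tgd1 of them are on the lists of hexose transporters, carbon source genes or glucose response regulators. Whether Scr1 acts on any of the 11 was not tested. Upstream stretches of 4 of them are shown from ASM294v3 with the box in capitals, 5′ to 3′ on the coding strand, ending directly before the annotated start.
ght1 (chrIII:235196-235275, minus strand): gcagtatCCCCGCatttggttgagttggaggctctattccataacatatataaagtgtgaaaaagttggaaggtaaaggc
pub3 (chrII:1938571-1938650, minus strand): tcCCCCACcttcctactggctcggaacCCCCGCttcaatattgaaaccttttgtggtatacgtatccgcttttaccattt
fio1 (chrI:4234992-4235071, plus strand): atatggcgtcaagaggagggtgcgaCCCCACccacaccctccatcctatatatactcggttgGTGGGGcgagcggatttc
ght4 (chrII:155522-155771, plus strand): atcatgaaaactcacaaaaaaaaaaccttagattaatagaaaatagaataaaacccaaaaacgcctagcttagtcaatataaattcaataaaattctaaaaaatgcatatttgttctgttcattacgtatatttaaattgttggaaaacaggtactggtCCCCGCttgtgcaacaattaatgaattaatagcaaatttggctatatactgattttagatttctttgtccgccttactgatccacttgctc
In pub3 and fio1 the box was present more than once. The stress element CCCCTC and the cyclic AMP response element TGACGT were each in 3.33% of the genes higher at 5%, beside 1.70% and 5.52% of all genes. In all, 6 motif sets were searched, and they were chosen with the genes of each direction known.

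**Figure D4:**
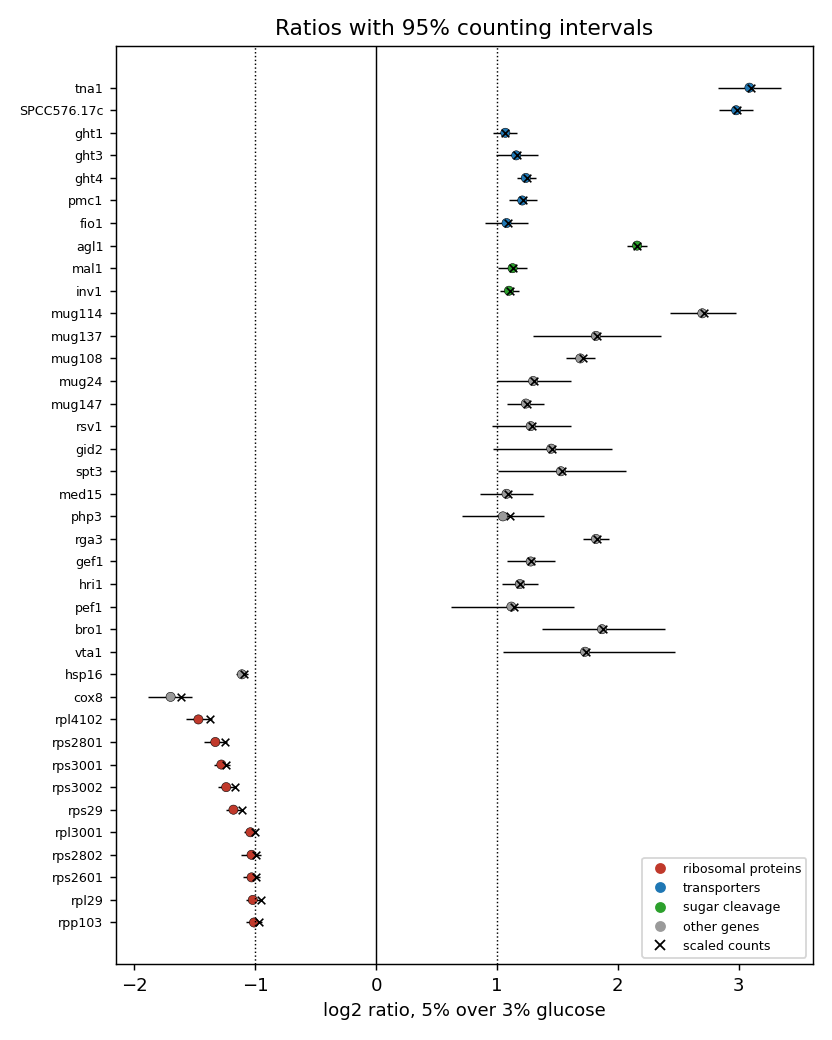
Log2 ratio of 5% over 3% glucose for 38 of the 87 genes, ordered by function, with circles for FPKM and crosses for counts per fragment. Bars are 95% exact intervals for counting error and dotted lines mark a 2-fold difference, and the crosses of the short genes at the bottom lie to the right of their circles.

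The list held 5 signalling and 5 transcription genes, grouped by annotation, all higher at 5% as were 70.1% of the 87 genes. The signalling gene rga3 had 857 counts in T1 and 3115 in T2 (3.54-fold, 3.28 to 3.82), and gef1 had 293 and 731 (2.42-fold, 2.11 to 2.78). The cyclin-dependent kinase gene pef1 and the gene of its partner cyclin clg1 had 10.6 and 23.04 FPKM (2.17-fold, 1.54 to 3.11) and 34.2 and 83.4 FPKM (2.44-fold, 2.17 to 2.75). The eIF2 alpha kinase gene hri1 had 34.1 and 77.5 FPKM (2.27-fold, 2.05 to 2.52). Of 42 genes of SAGA, TFIID and Mediator, spt3 and med15 were listed, with 41 and 122 counts (2.88-fold, 2.01 to 4.21) and 250 and 544 counts (2.11-fold, 1.82 to 2.47). The CCAAT-binding factor gene php3 had 105 and 233 counts, and sfc4, a TFIIIC subunit gene for RNA polymerase III transcription, had 163 and 368.

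Genes named for upregulation in meiosis (mug) were listed 5 times of 91, all higher at 5%, with a median log2 ratio of 1.69, beside 1.70% of all genes listed and 70.1% of the 87 higher at 5%. The orphan gene mug114 had 11.1 FPKM in T1 and 72.1 FPKM in T2 (6.48-fold, 5.37 to 7.87), and then 2.32 FPKM in T3. The transcript of mug108 had 130 and 420 FPKM (3.22-fold, 2.97 to 3.50), but the gene lies entirely within rga3 on the opposite strand. The others were mug137 with 40 and 146 counts, mug24 with 125 and 317, and mug147 with 475 and 1156. All the exons of mug137 are overlapped by erm2 on the opposite strand. Of 50 mating and meiosis genes only mat3-Mc was listed, in the other direction.

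Most of the vesicle traffic, protein turnover and mitochondrial genes higher at 5% had low counts, with pub3 as the exception. The ESCRT-associated genes bro1 and vta1 had 42 and 158 counts (3.65-fold, 2.58 to 5.26) and 23 and 79 counts (3.32-fold, 2.07 to 5.54). The HECT ubiquitin ligase gene pub3 had 329 and 741 counts (2.19-fold, 1.92 to 2.50), and ubc12, whose product conjugates NEDD8, had 22 and 57. The DnaJ-domain genes cwf23 and SPCC63.13 had 37 and 102 counts and 26 and 90 counts. For mitochondria, the mitochondrial ribosomal protein genes mrpl20 and mrpl27 had 61 and 128 counts and 20 and 59 counts, and the ATP synthase assembly factor gene fmc1 had 22 and 60. Both mitochondrial ribosomal genes thus lay on the other side from the listed cytosolic ones, as did 70.1% of the 87 genes. The rest of their family is not described here. In all, 28 of the 61 genes higher at 5% had fewer than 200 counts in both libraries.

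Abundant transcripts higher at 5% were fewer. The gene lsd90 had 246 FPKM in T1 and 631 FPKM in T2 (2.57-fold, 2.46 to 2.68), the highest level of this direction, and 165 FPKM in T3. The catechol O-methyltransferase gene cmt2 had 68.1 and 292 FPKM (4.29-fold, 3.86 to 4.79). The phospholipase gene plb3 had 51.9 and 115 FPKM (2.23-fold, 2.03 to 2.44), against the direction of plb2. Among the other genes of this direction, the muskelin gene mde6 had 291 and 708 counts, spg4 had 326 and 704, brc1, which encodes a BRCT domain protein, had 95 and 209, and rpp1, an RNase P and MRP subunit gene, had 17 and 50. A further 10 had no assigned function, and their ratios ran from 2.12 for SPBC428.10 (1.94 to 2.32) to 6.75 for SPBPB2B2.18 (3.89 to 13.6).

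Overlapping genes may limit several of these values. Of the 87 genes, 15 share at least 100 exon bases with another protein-coding gene of ASM294v3. Among them, rps3002 overlaps abz2 on the opposite strand over 42.5% of its exons. The clearest case is tgd1, whose exons are covered to 98.8% by gal10 on the opposite strand. tgd1 had 572 counts in T1 and 1212 in T2 (27.9 and 57.5 FPKM), and gal10 had 655 and 1287 counts (32.7 and 62.5 FPKM). The FPKM values of the pair were also alike at 8%, 9.36 and 9.54. The counts of both genes are whole in T1 and T2. Whether such a pair has a single source of fragments or 2 separate transcripts was not tested. The orphan gene SPAC2F3.07c, with 8 and 36 counts, is covered to 93.1% by sut1 in the same way.

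The largest ratios belonged to genes with near-identical copies. SPBPB10D8.04c, SPBPB10D8.05c and SPBPB10D8.06c are membrane transporter genes of a tandem array whose coding sequences of 1140 bases do not differ. SPBPB10D8.04c had 415.24 counts in T1 and 102.75 in T2, SPBPB10D8.05c 1.15 and 474.92, and SPBPB10D8.06c 0 and 159.04. Taken singly, the first was 4.18-fold higher at 3% (3.35 to 5.22), the second 393-fold higher at 5% (80.7 to 17900) and the third at least 51.2-fold higher at 5%. The sum of the 3 was 416 counts in T1 and 737 in T2, a ratio of 1.73 (1.53 to 1.95), which is under 2. The fourth copy, SPBPB10D8.07c, had 1133 counts in T1 and has no T2 value here, so the sum over the array is not known for T2.

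Retrotransposon and mating-type copies were of the same kind. The Tf2 copies Tf2-4, Tf2-5, Tf2-6 and Tf2-12 had 0.69 counts in all in T1, 765 in T2 and 2211 in T3, and the 4 coding sequences differ by at most 2 bases. Singly they were at least 57.3-fold to 63.4-fold higher at 5%, with a median log2 bound of 5.99, but Tf2-5, Tf2-6 and Tf2-12 are 1 sequence with 1 value. Tf2-7, a copy outside the list that shares 94.2% to 95.4% of their 25-base stretches, had 828 counts in T1 and 1957 in T3 and has no T2 value here, so Tf2 sequences were not absent at 3% and their sum is not known for T2. Tf2-11, which differs from Tf2-4 at 16 bases and is not in the list, had 30.11, 39.11 and 97.56 counts. The M-type regulator gene mat3-Mc had 455.36 counts in T1 and 1.2 in T2, 400-fold higher at 3% (85.6 to 19000), under the accession of the entry. It does not differ in coding sequence from mat1-Mc, the name the study uses for this entry, so the value can belong to either copy. How fragments were divided between such copies was not tested. In all 18 genes had counts that were not whole, 14 of them higher at 5%, including wtf8, wtf16, ftm2, SPAC977.18 and SPBPB2B2.18. In T1 and T2 wtf8 had 22.64 and 62.82 counts and wtf16 24 and 77.11, both of the wtf elements, whose members include meiotic drivers. Near the chromosome ends, ftm2 had 1.53 and 8.92 FPKM, SPAC977.18 had 8.29 and 44.1 FPKM, and SPBPB2B2.18 had 5.83 and 39.4 FPKM. The last 2 genes share 44.5% to 51.6% of their 25-base stretches.

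Several listed genes were neighbours. Of 6 adjacent pairs, 4 were both higher at 5% (SPBPB10D8.05c and SPBPB10D8.06c, SPAC977.18 and ftm2, SPBPB21E7.11 and cmt2, mal1 and ght4), trs130 and rps2802 were both higher at 3%, and SPBPB10D8.04c and SPBPB10D8.05c went opposite ways. The pair mal1 and ght4 joins a maltase and a hexose transporter gene. Among the first or last 40 genes of a chromosome lay 9 of 60 placed genes higher at 5% (15.0%) and 4 of 25 higher at 3%, beside 4.69% of 5113 protein-coding genes. Of the 9, SPBPB10D8.05c, SPBPB10D8.06c, SPBPB2B2.18, ftm2, SPAC977.18 and ght3 have copies or shared stretches, and the others are cmt2, tgd1 and SPBPB21E7.11. Of the 4 higher at 3%, SPBC1348.09, SPBPB10D8.04c and aat1 have copies or shared stretches, and the other is rpp103.

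A level at 8% glucose is held for 66 of the 87 genes, only because they were called in another comparison of the series, so the counts below describe those genes. Of 48 genes higher at 5%, 23 were higher again in T3, 13 lay between T1 and T2, and 12 fell below T1. The 12 included agl1, inv1, ght1, ght3, ght4, rsv1, mug108, mug114, rga3, lsd90 and tgd1. The sugar uptake and cleavage genes with a T3 value were all among these 12, beside genes of other functions. The 23 included tna1, SPCC576.17c, spt3, gid2, med15, gef1, clg1, pef1 and the Tf2 copies. Of 18 genes higher at 3%, 14 were lower again at 8%, 3 lay between and plb2 was above T1. These orders rest on FPKM values alone, with no limit on the size of a difference. Most of the 23 and most of the 14 are not listed as different between T2 and T3. Among the 23, ubc12 had 13.8 FPKM in T2 and 14.7 FPKM in T3, from 57 and 60 counts.

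**Figure D5:**
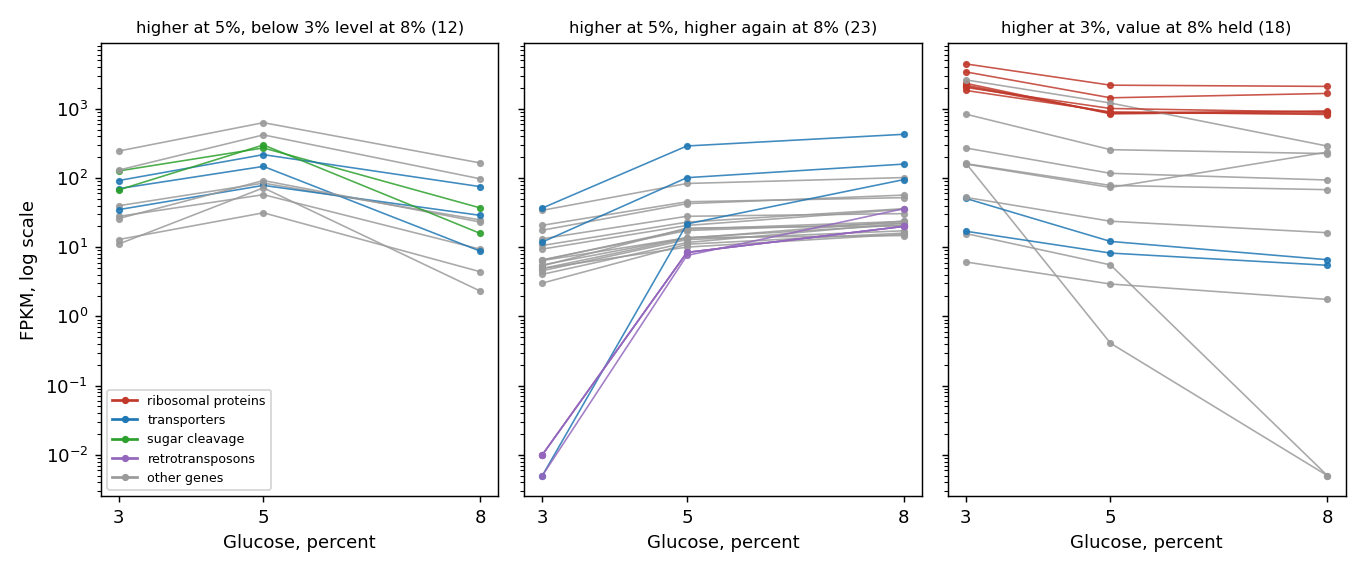
FPKM on a log scale at 3, 5 and 8% glucose for 3 sets of genes: the 12 higher at 5% that fell below their T1 level at 8%, the 23 higher again at 8%, and the 18 higher at 3% with a value at 8%. Each line is 1 gene with 1 library per concentration, and values under 0.005 FPKM are drawn at 0.005. The 13 genes higher at 5% that lay between are not drawn. The sets follow the order of FPKM values, with no limit on the size of a difference.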

How the data were processed

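Polyadenylated RNA of the T1 and T2 samples was sequenced as 1 library each. The study's methods name SOAPnuke for read filtering, BWA and Bowtie for alignment to genome and genes, and RSEM for quantification. The deposited expected counts are the authors' RSEM estimates and need not be whole. The deposited FPKM values were computed by the authors from them. The build aligned to and any strand setting are not given in the sources used here. Deposited columns with the authors' own log2 ratio, p-value and FDR, and a second sheet, were not used.

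FPKM ratios were computed with scipy 1.17.1 and pandas 2.3.3 in Python 3.11.15, with 95% exact Clopper-Pearson intervals from rounded counts. The interval code was tested on simulated data. The FPKM of 0.001 written for 0 counts was read as 0, and a floor of 3 counts was used. Fragment numbers and bases taken off were fitted over genes with over 200 counts. Of the 87 genes, 76 were named by accession, 10 by the name in the file, and 1 (SPCC1672.14) was not matched. Overlaps, neighbours, copies and promoter windows came from ASM294v3, and no deposited coordinates were used. Motifs were searched in 250 bases upstream with Biopython 1.88.

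The members, the gene lists and the motifs were chosen with earlier results of these data known. Named genes were those with the 10 largest and 10 smallest ratios, under 3 counts in a library, on a list, higher at 3%, with counts not whole, or neighbours, and others were named after their values were seen. The alternatives were counts under 2 planned scalings (implied library size, and gene-mapped reads of the study), a pseudocount of 1 FPKM, at least 10 FPKM or 10 counts, at least 4-fold, at least 1000 bases, and no counts that are not whole.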

Additional observations from a re-analysis of the deposited data

How the results depend on the processing

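No gene changed direction under any scaling or with a pseudocount of 1 FPKM. The number of genes at least 2-fold higher at 5% (61) ran from 46 to 61 under all settings other than a 4-fold limit, which left 15. The number higher at 3% (26) ran from 21 to 24, except that a 4-fold limit left 3 and genes of at least 1000 bases left 9. Most of the 15 and all 3 left by the 4-fold limit have copies or shared stretches. Scaling counts by gene-mapped reads moved the median log2 ratio of the ribosomal protein genes from -1.11 to -1.03. It was -1.05 with counts scaled to the fitted fragment numbers, a setting chosen after seeing the data. With a 4-fold limit the median was 2.16 over the carbon source genes left (agl1 alone) and 2.70 over the mug genes left (mug114 alone). A pseudocount of 1 FPKM brought the median of the Tf2 copies, which have under 1 count in T1, from 5.99 to 3.22. For single genes, scaling by gene-mapped reads moved 8 of 87 ratios outside their counting interval, all of short or abundant genes higher at 3%. The pseudocount moved 6, which are the Tf2 copies, SPBPB10D8.05c and SPBPB10D8.06c. Of these only SPBPB10D8.05c has an interval, and the others are bounds that were judged by the size of their shift. Medians with no gene left under a setting were not computed. No paired analysis was possible because each concentration has 1 library. Depth limits the genes with few counts, such as SPAC2F3.07c and vta1, whose intervals span more than 2-fold, and no setting measures the difference between cultures.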

Other observations

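A further 111 genes have values in both T1 and T2 only because both other comparisons of the series list them. Each was thus called different between T3 and T1 and between T3 and T2, so they are not a sample of all genes. Of these, 85 were higher and 26 lower in T2, with a median log2 ratio of 0.28 (-0.93 to 1.08). Only 2 of them were under 600 bases and both were lower in T2, one of them SPBC3D6.16 with 323 FPKM in T1, 212 in T2 and 82.7 in T3. Although not listed, SPCC191.10 (25 counts in T1 and 55 in T2), SPBC17G9.12c (17 and 37) and tea2 (26 and 55) were more than 2-fold higher at 5% by FPKM, and mib1 (15 and 31) was at 2-fold. The widest differences the other way outside the list were under 2-fold, as SPBPB2B2.05 had 108 counts in T1 and 59 in T2, and slt1 had 451 and 261 FPKM. The heat shock gene hsp104 had 462 and 328 FPKM, in the direction of hsp16, and 105 FPKM in T3. The main hexose transporter gene ght5 had a log2 ratio of 0.47 from 2057 and 2857 FPKM, in the direction of ght1, ght3 and ght4.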
